A study of Mus musculus with 2 samples.

Results

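Lck, Zap70, Lat, Lcp2 and Fyb, which encode kinases and adaptors directly below the T-cell receptor, were followed across the T, NK, B and myeloid cells of mouse spleen. They were chosen as the rows of these 5 symbols in both deposited tables, and both tables held all 5 of them among 30457 genes listed in either table. The spleens came from female C57BL/6J mice that carried subcutaneous Lewis lung carcinoma, a transplantable lung tumour, and were 10 weeks old. Every mouse had received 200 μg of an anti-CD4 antibody on days 5 and 9, and spleens were taken on day 12, so no library came from untreated or tumour-free animals. Cells of 3 spleens were pooled, stored frozen and thawed, and 2000 cells were loaded on 1 BD Rhapsody cartridge, whose beads capture polyadenylated RNA from its 3′ end. The beads were then divided between 2 ways of amplifying the same kind of cDNA. TAS-Seq adds a tail of controlled length to the cDNA with a terminal transferase, and BD WTA is the kit of the manufacturer, which relies on random primers. Each method gave 1 library, TAS-Seq with 736 barcodes and 38656790 reads and BD WTA with 716 barcodes and 31608259 reads, and the tables shared 0 barcodes. Since each method had a single library, nothing below could be checked against replicates or tested, and the values hold for these cells alone.

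When a T-cell receptor binds its ligand, LCK, a Src family kinase held at the CD4 and CD8 coreceptors, phosphorylates the signalling motifs of the CD3 and zeta chains. ZAP-70, a kinase with paired SH2 domains, docks on the phosphorylated motifs and in turn phosphorylates the membrane adaptor LAT and the cytosolic adaptor SLP-76, the product of Lcp2. LAT and SLP-76 together gather phospholipase C-gamma and other effectors, and ADAP, the product of Fyb, binds SLP-76 and links the receptor to integrin adhesion. NK cells use several of these proteins below their own activating receptors, B cells run a parallel pathway through SYK and BLNK, and SLP-76 and ADAP are also known from myeloid cells and platelets.

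The genes lie on 5 chromosomes of build GRCm38, and all are annotated as protein coding in GENCODE mouse release 21. Lck spans chr4:129548344-129573641 on the minus strand, Zap70 spans chr1:36761798-36782818 on the plus strand, and Lat spans chr7:126363824-126369570 on the minus strand. Lcp2 spans chr11:34046920-34092295 and Fyb chr15:6522853-6663313, both on the plus strand. Near copies could have taken reads from few of them. None of the 2921 stretches of 30 bases in Lck transcripts, and none of the 2955 in Zap70 transcripts, was shared with another gene, against 1.54% for Lat, 0.709% for Lcp2 and 5.77% for Fyb. The gene Gm7666 overlaps Fyb on its own strand and held 517 reads in TAS-Seq and 102 in BD WTA, so part of the Fyb signal may have been assigned to it, and the Fyb levels are uncertain to that extent.

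The promoter windows of the 5 genes are shown because all 5 were higher in T-like than in B-like cells while their levels in NK-like and myeloid-like cells parted, as described below. Each window is the RefSeq sequence of build GRCm38.p6 from 250 bases before to 50 bases after the most upstream RefSeq start. It is written 5′ to 3′ on the strand of the gene. For Fyb this start, at base 6579847, lies inside the GENCODE span, which begins at base 6522853. The Fyb window is therefore not at the most upstream end of the gene as GENCODE gives it. Capitals mark matches, on either strand, to the cores of the ETS, RUNX, GATA, TCF or LEF, and SP or KLF motifs, whose letters follow the sequences.
Lck, chr4:129573592-129573891, minus strand: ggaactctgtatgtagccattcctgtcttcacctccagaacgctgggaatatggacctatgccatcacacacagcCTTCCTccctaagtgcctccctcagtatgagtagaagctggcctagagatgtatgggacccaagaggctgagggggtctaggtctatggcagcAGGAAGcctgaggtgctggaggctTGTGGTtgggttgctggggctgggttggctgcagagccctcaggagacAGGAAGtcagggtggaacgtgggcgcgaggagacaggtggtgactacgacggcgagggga
Zap70, chr1:36761548-36761847, plus strand: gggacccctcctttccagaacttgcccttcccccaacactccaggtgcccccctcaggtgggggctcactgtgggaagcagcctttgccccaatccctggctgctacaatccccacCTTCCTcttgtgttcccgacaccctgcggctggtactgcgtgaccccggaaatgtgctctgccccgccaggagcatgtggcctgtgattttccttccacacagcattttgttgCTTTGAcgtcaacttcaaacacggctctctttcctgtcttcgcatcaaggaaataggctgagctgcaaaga
Lat, chr7:126369519-126369818, minus strand: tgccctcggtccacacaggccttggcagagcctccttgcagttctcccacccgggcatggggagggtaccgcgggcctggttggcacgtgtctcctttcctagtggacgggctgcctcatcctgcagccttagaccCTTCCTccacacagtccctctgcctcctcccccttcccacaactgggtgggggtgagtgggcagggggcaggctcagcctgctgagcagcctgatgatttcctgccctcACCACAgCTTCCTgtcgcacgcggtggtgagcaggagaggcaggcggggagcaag
Lcp2, chr11:34046678-34046977, plus strand: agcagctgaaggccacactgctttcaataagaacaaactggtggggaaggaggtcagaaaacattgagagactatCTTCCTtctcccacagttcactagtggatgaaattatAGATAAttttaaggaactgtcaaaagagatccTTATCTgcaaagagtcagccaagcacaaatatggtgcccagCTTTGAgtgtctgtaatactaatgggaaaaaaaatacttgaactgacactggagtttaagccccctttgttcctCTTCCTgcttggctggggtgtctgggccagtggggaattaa
Fyb, chr15:6579597-6579896, plus strand: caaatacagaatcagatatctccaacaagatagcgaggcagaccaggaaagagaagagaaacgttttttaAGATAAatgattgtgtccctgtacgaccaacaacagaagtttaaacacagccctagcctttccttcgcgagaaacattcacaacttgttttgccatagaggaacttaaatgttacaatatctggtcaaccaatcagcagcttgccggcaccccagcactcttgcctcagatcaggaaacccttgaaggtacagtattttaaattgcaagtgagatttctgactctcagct

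The ETS core, AGGAAG, was found 3 times in the Lck window, once in that of Zap70, and 2 times each in those of Lat and Lcp2. The same 6 letters stood in 35.4% of 32817 mouse promoter windows of this length. The RUNX core, TGTGGT, present in 16.8% of all windows, was found once each in the windows of Lck and Lat. The GATA core, AGATAA, present in 11.2%, was found 2 times in the Lcp2 window and once in that of Fyb. The TCF or LEF core, CTTTGA, present in 16.0%, was found once each in the windows of Zap70 and Lcp2. The SP or KLF core, GGGCGG, present in 35.6%, was found in none of the 5, and no 2 of these cores overlap in the windows shown. The windows of Lck, Zap70 and Lat had a GC content of 58.3%, 57.3% and 65.7%, and those of Lcp2 and Fyb had 43.3% and 42%. Lck has a second, more proximal start, whose window held 1 ETS and 1 SP or KLF core, and Zap70 has 2 further starts with 3 and 0 matches. A match of letters is a description and not a bound site.

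Cells were grouped by clustering both libraries together without the 5 genes and without the pathway lists below, and clusters were named from lists of marker genes that hold none of the 5. Of the 732 TAS-Seq and 708 BD WTA cells that passed the filters, 278 and 286 were T-like, 20 and 26 NK-like, 410 and 368 B-like, and 24 and 28 myeloid-like. Since these markers named the clusters, their levels describe the classes and do not check them. The 6 T-cell markers together held 5267 and 5856 reads per 1000000 reads of the class (counts per 1000000, CPM) in T-like cells, 925 and 770.5 CPM in NK-like cells, 77.2 and 62.2 CPM in B-like cells and 54.2 and 40.8 CPM in myeloid-like cells, TAS-Seq first. The myeloid-like class joins 2 clusters. The first, of 14 and 17 cells, had Hmox1, Csf1r and C1qa among its leading genes and is called mononuclear below. It also held markers of conventional dendritic cells, at 539.6 and 741 CPM in sum, and of plasmacytoid dendritic cells, at 1996 and 69.8 CPM, so its makeup differed between the libraries. The other cluster, of 10 and 11 cells, was led by S100a9 and S100a8, which are genes of neutrophils. Neutrophil markers summed to 46.6 and 64.1 CPM in the first cluster and to 124538 and 62505 CPM in the other. Monocyte or macrophage markers did not separate the clusters, at 1986 and 5532 CPM in the first and 2941 and 4909 CPM in the other. The median T-like cell had 52564 and 42175 reads and the median B-like cell had 42495 and 35647.

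Levels are given as pooled CPM, the reads of a gene summed over the cells of a class, with a 95% exact Poisson interval. Shares of cells with a gene were taken after each cell was thinned to 20000 reads, with 95% exact (Clopper-Pearson) intervals. Reads were counted without molecular identifiers and are not independent molecules, so every interval covers counting error only. A difference is called here when pooled CPM + 1 differed by at least 2-fold, and folds are ratios of pooled CPM.

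All 5 genes stood at least 2-fold higher in T-like than in B-like cells in both libraries. Across all genes tested, 8.0% were that much higher in TAS-Seq (801 of 10011) and 11.1% in BD WTA (1069 of 9673). The median log2 ratio of the 5 genes was 5.13 and 6.02, against a median of -0.09 and -0.0039 over all genes tested. Each of the 5 lay above the 98th percentile of tested genes in both libraries, between 98.7 and 99.8.

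**Figure D1:**
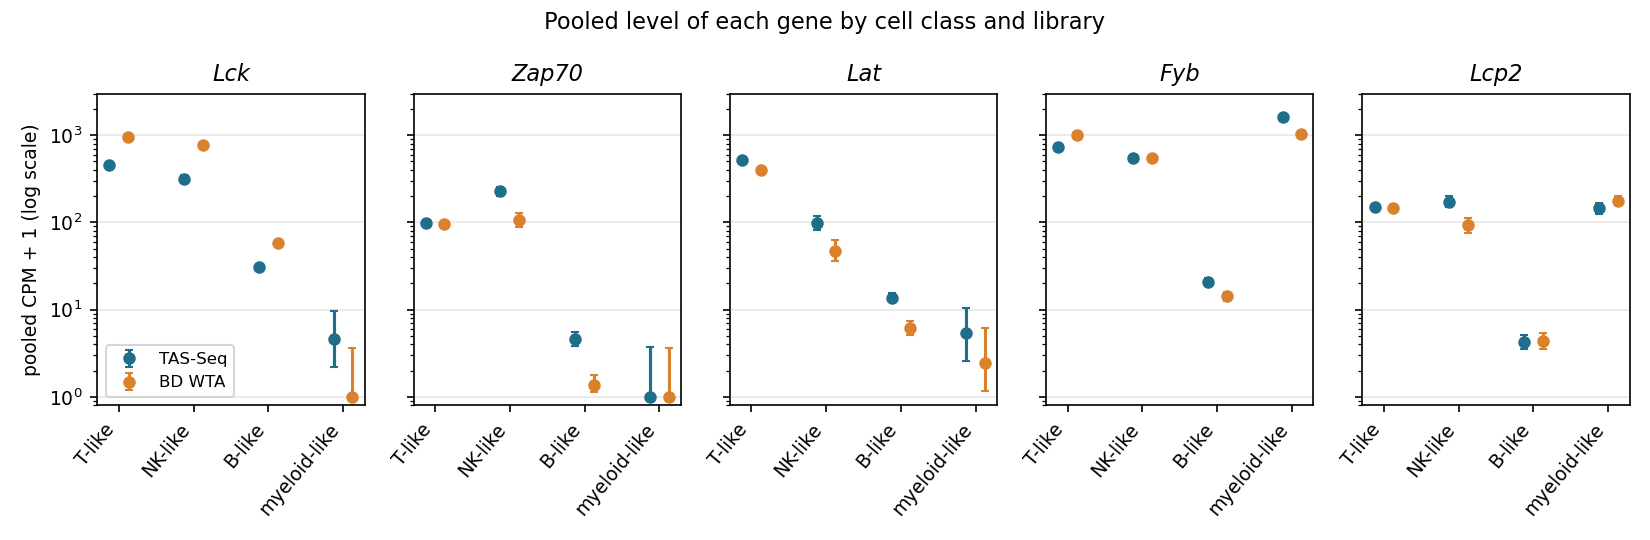
Pooled level of each of the 5 genes in the 4 cell classes, as CPM + 1 on a log axis, with 1 point per library and bars for the 95% exact Poisson interval. Every T-like point lies above the B-like point of the same library. The points of Lck, Zap70 and Lat are lowest in myeloid-like cells, though for Zap70 and Lat in BD WTA the myeloid-like and B-like intervals overlap. Fyb and Lcp2 are close to or above their T-like level in myeloid-like cells.

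Lck, the kinase that starts the cascade, was at 449.9 CPM in T-like cells of the TAS-Seq library (interval 439.5 to 461) and at 940.2 CPM in those of the BD WTA library (923 to 957). NK-like cells followed with 313 CPM (281 to 347) and 766 CPM (715 to 819). B-like cells had 29.5 CPM (27.2 to 32.0) and 57.5 CPM (53.9 to 61.3). By pooled CPM the order T-like, NK-like, B-like, myeloid-like was the same in both libraries, and no neighbouring intervals overlapped. By the mean of single-cell CPM, NK-like cells of BD WTA stood above T-like cells instead, at 1004 against 941 CPM. Myeloid-like cells had 5 reads in TAS-Seq, or 3.66 CPM (1.19 to 8.54), and 0 reads in BD WTA. Against a floor of 3 reads for the myeloid-like cells of that library, the level in T-like cells was at least 438-fold higher. T-like cells exceeded B-like cells 15.2-fold in TAS-Seq (14.0 to 16.6) and 16.3-fold in BD WTA (15.3 to 17.5), which were the smallest ratios among the 5 genes in either library.

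A read of Lck was found in 76.9% of T-like cells in TAS-Seq (71.3% to 81.8%) and in 76.5% in BD WTA (70.9% to 81.5%). The libraries therefore reached nearly the same share of cells at unequal pooled levels. In cells with the gene, the median was 9 reads in TAS-Seq and 21 reads in BD WTA at equal depth. Among B-like cells 14.1% had a read in TAS-Seq (10.8% to 17.9%) and 8.06% in BD WTA (5.38% to 11.5%), and among myeloid-like cells it was 0 of 22 and 0 of 23, which by a limit of 3 cells allows up to 13.6% and 13.0% of cells with a read. Without thinning, 80.9% and 74.8% of T-like cells and 22.0% and 8.42% of B-like cells had a read.

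Zap70, the kinase that LCK activates, was at 96.5 CPM in T-like cells of TAS-Seq (91.7 to 101.5) and at 95.1 CPM in those of BD WTA (89.8 to 100.7). In NK-like cells it was at 225 CPM (198 to 255) and 106 CPM (87.6 to 127). NK-like cells were thus the highest class in TAS-Seq, while in BD WTA the intervals of NK-like and T-like cells overlapped. B-like cells had 3.63 CPM (2.85 to 4.55) and 0.366 CPM (0.134 to 0.798), the latter from 6 reads. Myeloid-like cells had 0 reads of Zap70 in either library, so the T-like level was at least 43.9-fold higher in TAS-Seq and at least 44.3-fold higher in BD WTA, against 3 reads per library. The ratio of T-like to B-like cells was 26.6 in TAS-Seq (21.05 to 34.0) and 259.6 in BD WTA (119 to 709).

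At the same pooled level the libraries differed in the share of T-like cells with Zap70, 34.0% in TAS-Seq (28.3% to 40.0%) and 17.4% in BD WTA (13.0% to 22.5%). The cells that had it held a median of 5 reads in TAS-Seq and 10 reads in BD WTA. In B-like cells the shares were 4.03% (2.32% to 6.46%) and 0.896% (0.185% to 2.59%). Of the B-like cells with Zap70, 81.2% in TAS-Seq and 100% in BD WTA had a single read.

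Lat, the membrane adaptor that ZAP-70 phosphorylates, was at 515 CPM in T-like cells of TAS-Seq (503 to 526) and at 401 CPM in those of BD WTA (389.8 to 412). The step down to NK-like cells was wide for this gene, which was at 98.5 CPM there in TAS-Seq (81.1 to 119) and 46.6 CPM in BD WTA (34.8 to 61.2). B-like cells had 12.8 CPM (11.3 to 14.4) and 5.19 CPM (4.15 to 6.42), and myeloid-like cells had 6 reads and 2 reads, or 4.39 CPM (1.61 to 9.56) and 1.43 CPM (0.173 to 5.17). T-like, NK-like and B-like cells came in this order in both libraries with no overlap, whereas the B-like and myeloid-like intervals overlapped in BD WTA. The ratio of T-like to B-like cells was 40.2 (35.6 to 45.7) and 77.2 (62.3 to 96.8). Lat was found in 84.0% of T-like cells in TAS-Seq (79.0% to 88.1%) and in 59.8% in BD WTA (53.7% to 65.8%), and in 10.1% and 0.597% of B-like cells.

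Lcp2, which encodes the adaptor SLP-76, was at 149.5 CPM in T-like cells of TAS-Seq (144 to 156) and at 146 CPM in those of BD WTA (139 to 153). Myeloid-like cells had 144 CPM (125 to 166) and 177 CPM (155 to 200.2). NK-like cells had 172 CPM (148 to 197) and 92.4 CPM (75.4 to 112). In TAS-Seq these 3 classes could not be ordered, since their intervals overlapped, and in BD WTA the NK-like level was below both others, while the myeloid-like interval began just above the end of the T-like one. B-like cells stood apart with 3.28 CPM (2.55 to 4.17) and 3.42 CPM (2.58 to 4.44), and the ratio of T-like to B-like cells was 45.5 (35.7 to 58.9) and 42.6 (32.7 to 56.6). In T-like cells, 38.4% (32.6% to 44.5%) and 29.2% (23.8% to 35.1%) had a read of Lcp2, as did 40.9% and 30.4% of myeloid-like cells, and 4.28% and 1.79% of B-like cells.

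Fyb, which encodes ADAP, was at 724 CPM in T-like cells of TAS-Seq (710.3 to 737) and at 1016 CPM in those of BD WTA (998 to 1034). Myeloid-like cells had 1604 CPM (1538 to 1673) and 1031 CPM (979 to 1086). They were the highest class in TAS-Seq, and in BD WTA their interval overlapped that of T-like cells. NK-like cells had 540.1 CPM (498 to 585) and 542 CPM (499 to 587), lower than T-like cells in both libraries. B-like cells had 19.8 CPM (17.9 to 21.8) and 13.2 CPM (11.5 to 15.1), and the ratio of T-like to B-like cells was 36.6 (33.2 to 40.5) and 77.0 (67.3 to 88.5). Among T-like cells, 85.4% (80.6% to 89.4%) and 80.7% (75.4% to 85.3%) had a read of Fyb, as did 86.4% and 73.9% of myeloid-like cells, and 19.1% and 5.37% of B-like cells.

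All 5 ratios of T-like to B-like cells stayed past 2-fold under every alternative tried, but their size moved by more than the counting intervals show. On the log2 scale of CPM + 1, Lck ranged from 3.84 to 4.61 in TAS-Seq and from 4.01 to 4.57 in BD WTA, and Zap70 from 4.16 to 5.52 and from 4.89 to 6.41. Fyb went from 6.16 to 3.44 and Lcp2 from 5.05 to 3.06 in BD WTA when each library was clustered alone, where no cluster was named myeloid-like and 1 of the B-like clusters was led by Il1b. With each cell classed by its own markers, Fyb in TAS-Seq went from 5.13 to 3.54 and Lcp2 from 5.13 to 4.41. The Lat ratio of BD WTA rested on few B-like cells, since 5 cells held all 85 of their Lat reads and 82 of these lay in 1 of the 3 B-like clusters. It went from 6.02 to 8.22 with each library clustered alone and to 8.51 without the 5 cells with most reads in each class.

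**Figure D2:**
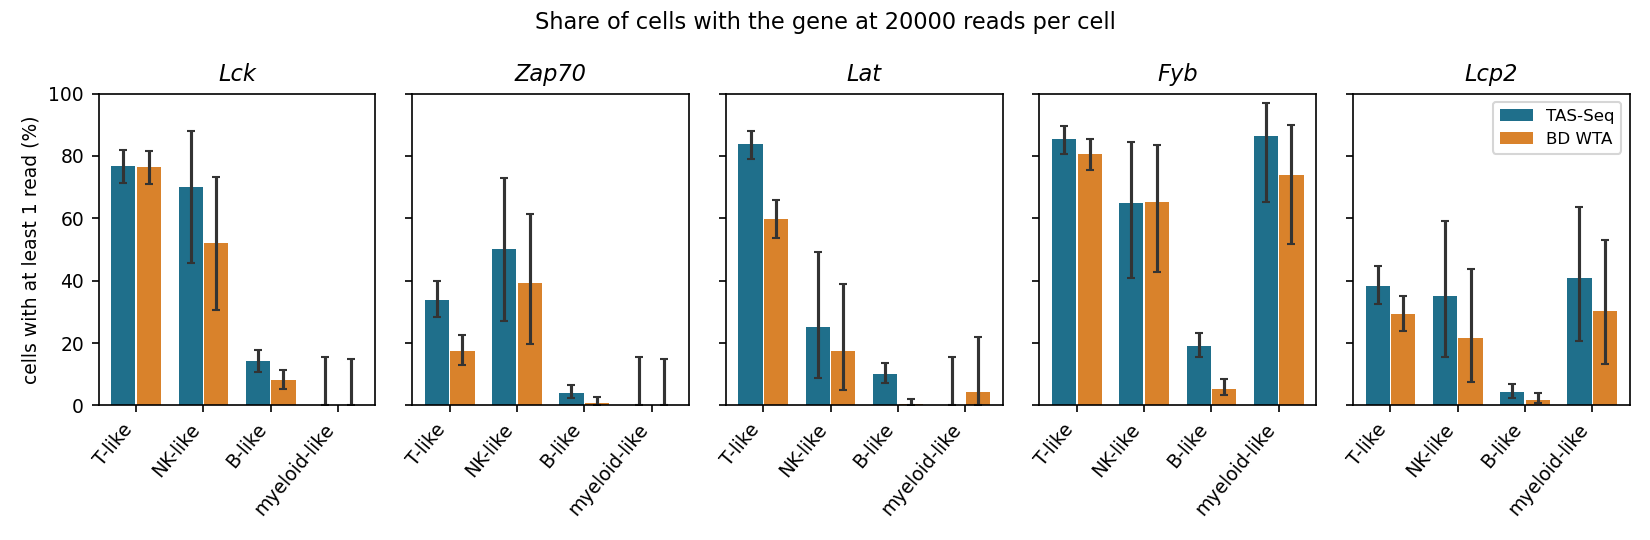
Percent of cells with at least 1 read of the gene after each cell was thinned to 20000 reads, by class and library, with 95% exact binomial intervals as bars. The shares of T-like cells with Lck are 76.9% and 76.5%, while for Zap70 and Lat the TAS-Seq share of T-like cells lies above that of BD WTA with no overlap of the intervals.

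The first question between classes beyond B cells was whether NK-like cells hold the same set as T-like cells. Lat differed by at least 2-fold in both libraries, at 0.191 times the T-like level in TAS-Seq (0.157 to 0.231) and 0.116 times in BD WTA (0.0868 to 0.153). Zap70 was 2.33 times the T-like level in TAS-Seq (2.04 to 2.67) and 1.11 times in BD WTA (0.913 to 1.35). The other genes stayed within 2-fold, with ratios of 0.696 and 0.815 for Lck, 0.747 and 0.533 for Fyb, and 1.15 and 0.634 for Lcp2. This made 2 of 5 genes called in TAS-Seq and 1 of 5 in BD WTA, beside 49.6% and 47.8% of all genes tested, so the count does not stand out from the background. NK-like cells were few, and 5 cells held 98.2% and 98.1% of their Lat reads, 70.7% and 90.7% of their Zap70 reads, and 66.9% and 59.8% of their Lck reads. Without the 5 cells with most reads in each class, the log2 ratio of Zap70 went from 1.21 to 0.14 in TAS-Seq and from 0.15 to -2.27 in BD WTA, and that of Lcp2 went from 0.20 to -3.20 and from -0.65 to -6.83. The T-cell markers that remained in NK-like cells, at the CPM given above, moved with this class too, and their part in the result was not tested.

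Against B-like cells, all 5 genes were at least 2-fold higher in NK-like cells of both libraries, beside 20.4% and 20.8% of all genes tested. The ratios ran from 7.70 for Lat to 62.1 for Zap70 in TAS-Seq. In BD WTA they ran from 8.98 for Lat (6.24 to 12.8) to 289 for Zap70 (129 to 803), the latter against 6 reads in B-like cells. No alternative was tried for this comparison. In NK-like cells 5 cells held 98.2% and 98.1% of the 112 and 52 Lat reads, and 95.4% and 100% of the Lcp2 reads. The ratios of these genes to B-like cells thus rested on few cells.

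In myeloid-like cells the 5 genes split into groups. Lck, Zap70 and Lat had between 0 and 6 reads in each library, and Lck and Lat were below 0.01 times the T-like level wherever a read was found. The ratio for Lck in TAS-Seq was 0.00814 (0.00264 to 0.0190), and the ratios for Lat were 0.00854 (0.00313 to 0.0186) and, from 2 reads, 0.00357 (0.000432 to 0.0129). Fyb was 2.22 times the T-like level in TAS-Seq (2.12 to 2.32) and 1.01 times in BD WTA (0.960 to 1.07), and Lcp2 was 0.965 times (0.830 to 1.12) and 1.21 times (1.06 to 1.39). Counting both directions, 4 and 3 of the 5 genes were called, beside 55.1% and 56.3% of all genes tested. Without the 5 cells with most reads in each class, the log2 ratio of Fyb in TAS-Seq went from 1.15 to 0.78 and was no longer past 2-fold, and that of Lcp2 went from -0.05 to -1.68, past 2-fold on the lower side. In BD WTA the same step took Fyb from 0.02 to -0.89 and Lcp2 from 0.28 to -0.94, so the levels of both genes in myeloid-like cells rested in large part on few cells. Against B-like cells, Fyb and Lcp2 were the genes at least 2-fold higher in myeloid-like cells, 2 of 5 in each library, beside 19.2% and 18.5% of all genes tested. The ratios were 81.2 (73.0 to 90.5) and 78.2 (67.7 to 90.6) for Fyb and 43.9 (33.1 to 58.8) and 51.7 (38.5 to 70.4) for Lcp2.

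The split was seen in both clusters of the myeloid-like class for Lck and Lat, and for Zap70 only as far as its floor allows. Fyb was at 1631 and 1013 CPM in mononuclear cells and at 1534 and 1084 CPM in neutrophil-like cells, and Lcp2 was at 112 and 170.3 CPM and at 227 and 196 CPM, TAS-Seq first. Lck had 0 reads in neutrophil-like cells of both libraries and in mononuclear cells of BD WTA. The median log2 ratio of all genes tested, neutrophil-like over T-like cells, was itself -2.32 and -3.70. Zap70 had 0 reads in neutrophil-like cells, so against 3 reads its T-like level was at least 12.2-fold and 11.2-fold higher. In BD WTA a drop of Zap70 beyond that of the median gene was therefore not shown in this cluster. The summed T-cell markers were at 45.6 and 6.70 CPM in mononuclear cells and at 76.7 and 142 CPM in neutrophil-like cells, against the 5267 and 5856 CPM of T-like cells. Their part in the Fyb and Lcp2 levels there was not tested. No myeloid-like cell had 3 or more of the 5 genes, 0 of 22 and 0 of 23.

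**Figure D3:**
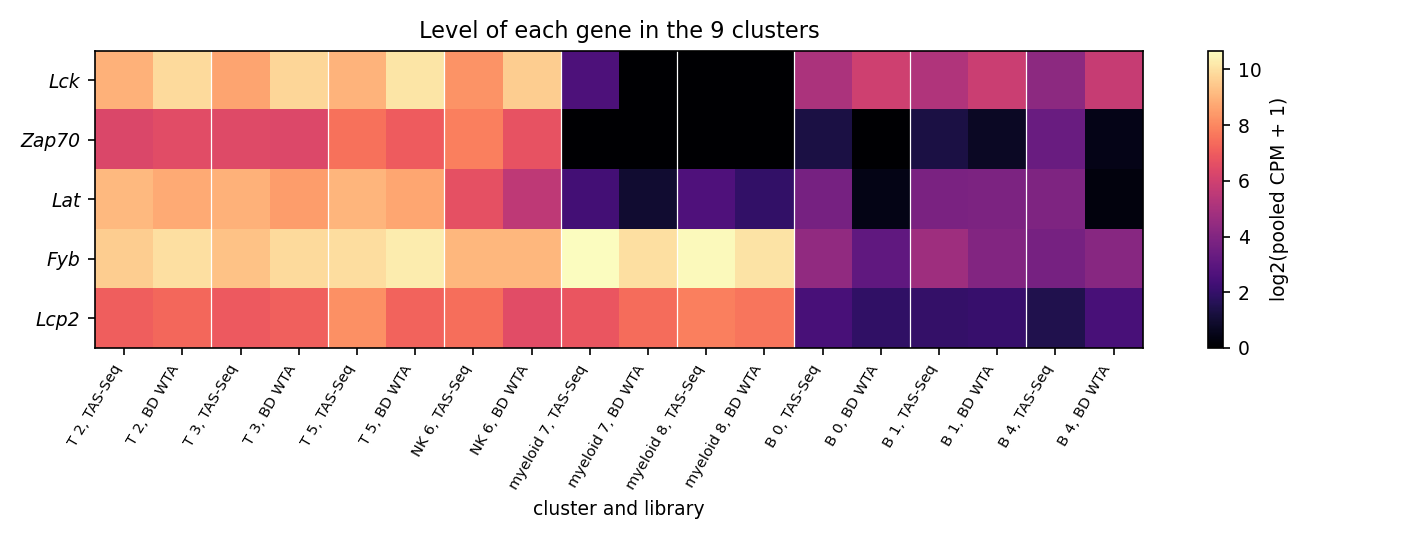
Level of each gene, as log2(pooled CPM + 1), in the 9 clusters of each library, grouped into T-like, NK-like, myeloid-like and B-like. Fyb and Lcp2 keep high values across the T-like, NK-like and myeloid-like columns, whereas Lck, Zap70 and Lat drop below 3 in the myeloid-like ones.

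Over the 9 clusters of the 2 libraries, 18 units in all, the pattern of Fyb was most like that of Lcp2 and the pattern of Lcp2 most like that of Fyb among 12505 genes, with a Pearson r of 0.98. After each other, both were followed by Timp2, an inhibitor of metalloproteinases, at 0.94 for Fyb and 0.95 for Lcp2, and by Selplg, the P-selectin ligand, at 0.94 and 0.95. Zap70 was most like Cd247, the zeta chain on which ZAP-70 docks, at 0.97, then Sh2d1a and Cd27 at 0.97 and 0.96. Lat was most like Cd27 at 0.96, then Trbc2 and Trac, constant segments of the T-cell receptor, both at 0.96. Lck was most like Adgrl1, Lime1 and Igf2r at 0.95, 0.95 and 0.94. Among Lck, Zap70 and Lat the values lay between 0.79 and 0.92. Between these 3 genes and Fyb or Lcp2 they ranged from 0.059 for Lck with Fyb to 0.49 for Lat with Lcp2, and they were 0.10 for Lck with Lcp2, 0.41 and 0.47 for Zap70 with Fyb and Lcp2, and 0.47 for Lat with Fyb. These units share libraries and the classes themselves, so the correlations are descriptions only, and they follow mainly which classes hold a gene.

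Within T-like cells the question was whether the genes differ between the coreceptor groups, since LCK binds both CD4 and CD8. With at least 5 reads of one coreceptor and fewer of the other at 20000 reads, 54 and 61 T-like cells were Cd4 cells, which had persisted after the anti-CD4 antibody, 121 and 112 were Cd8 cells, and 89 in each library had neither. None of the 5 genes differed by at least 2-fold between Cd8 and Cd4 cells, beside 24.3% and 25.1% of all genes tested. Lck was at 405 and 869 CPM in Cd8 cells and 461 and 1059 CPM in Cd4 cells, ratios of 0.878 (0.823 to 0.937) and 0.820 (0.783 to 0.859). Lat was 0.796 and 0.717 times the Cd4 level and Fyb 0.664 and 0.923 times, so by pooled CPM these 3 genes were lower in Cd8 cells of both libraries by less than the 2-fold bound. Without the 5 cells with most reads in each group, the log2 ratio of Lck in TAS-Seq went from -0.19 to 0.0037, while the other ratios of these 3 genes kept their sign. A read of Lck was found in 78.5% of Cd8 and 68.5% of Cd4 cells in TAS-Seq, and in 72.3% and 83.6% in BD WTA. Zap70 was higher in Cd8 cells of TAS-Seq and lower in those of BD WTA, with ratios of 1.26 (1.08 to 1.47) and 0.652 (0.566 to 0.751). T-like cells with neither coreceptor had 495 and 966 CPM of Lck, 112 and 93.3 CPM of Zap70, 522 and 396 CPM of Lat, 777 and 989 CPM of Fyb and 211 and 115 CPM of Lcp2.

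The T-like cells fell into 3 clusters. Cluster 5, led by Trgc2, Trgc1 and Ikzf2, had more Zap70 and Lcp2 than the other T-like cells in TAS-Seq, 182 against 82.8 CPM and 291 against 127 CPM. In BD WTA the same values were 126 against 86.7 CPM and 146 against 146 CPM. Zap70 was thus higher in both libraries, 2.20 times (1.96 to 2.47) and 1.45 times (1.28 to 1.65). Fyb was higher in both as well, 1.44 times (1.37 to 1.51) and 1.28 times (1.23 to 1.33). So was Lck, 1.14 times (1.06 to 1.21) and 1.22 times (1.17 to 1.28). Of the Zap70 reads of cluster 5, 5 cells held 53.7% and 65.5%, and no alternative was tried for this comparison. The genes past 2-fold were 2 of 5 and 0 of 5, beside 30.6% and 31.0% of all genes tested. Lat was 1.02 and 1.03 times the level of the other T-like cells. Cluster 2 and cluster 3, with Igfbp4 and with Cd8b1 among their leading genes, had Lat at 549.9 and 438 CPM and at 488 and 361 CPM.

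Counted per cell at 20000 reads, at least 3 of the 5 genes were detected in 76.1% of T-like cells of TAS-Seq, 204 of 268 (70.6% to 81.1%), and in 56.1% of those of BD WTA, 148 of 264 (49.8% to 62.1%). NK-like cells reached 45.0% (23.1% to 68.5%) and 30.4% (13.2% to 52.9%). In B-like cells the share was 0.756%, 3 of 397 (0.156% to 2.19%), and 0.299%, 1 of 335 (0.00756% to 1.65%). All 5 genes were found in 26 T-like cells of TAS-Seq and 6 of BD WTA, and none of the 5 in 2 and 4 T-like cells. B-like cells without any of the genes made up 57.7% (52.7% to 62.6%) and 85.1% (80.8% to 88.7%). The share of T-like cells with at least 3 genes moved with the reads demanded, and with at least 5 reads per gene it was 47.0% and 37.9%.

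**Figure D4:**
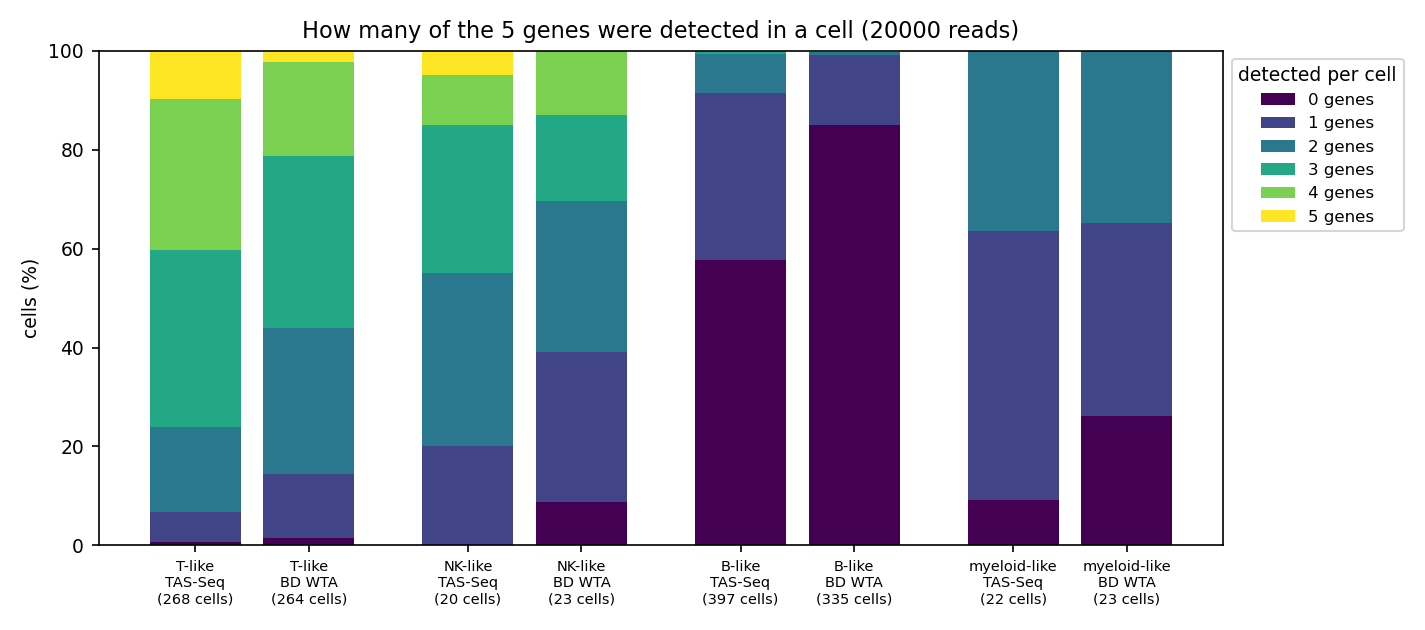
Percent of cells in which 0 to 5 of the genes were detected at 20000 reads per cell, stacked for each class and library with the number of cells under each bar. T-like cells hold mostly 2 to 4 of the genes, B-like cells mostly 0 or 1, and no myeloid-like cell holds more than 2.

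Whether the genes were found in the same T-like cells was described at equal depth, for a few of the pairs. Zap70 was detected in 38.3% of the TAS-Seq T-like cells that had Lck and in 19.4% of those that did not, and in BD WTA in 19.8% and 9.68%. Zap70 was thus found more often in cells with Lck than in cells without, while most cells with Lck had no Zap70 read. The 95% intervals were 31.7% to 45.4% against 10.4% to 31.4% in TAS-Seq. In BD WTA they overlapped, at 14.5% to 25.97% against 3.63% to 19.9%. For Lat given Lck the shares were 84.95% and 80.6% in TAS-Seq and 63.4% and 48.4% in BD WTA. For Fyb given Lck they were 88.8% and 74.2% in TAS-Seq but 79.7% and 83.9% in BD WTA. The intervals of Lat and of Fyb given Lck overlapped in both libraries. For Lcp2 given Fyb the shares were 37.1% (30.8% to 43.7%) and 46.2% (30.1% to 62.8%) in TAS-Seq. In BD WTA they were 30.5% (24.4% to 37.2%) and 23.5% (12.8% to 37.5%). These intervals overlapped too, with only 39 and 51 cells lacking Fyb. Neither library thus showed a direction for Fyb and Lcp2 among single T-like cells, beside their close match across clusters.

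The Lck reads of B-like cells were gathered in few cells. At 20000 reads, 14 B-like cells of TAS-Seq and 18 of BD WTA had at least 5 Lck reads, with medians of 11.5 and 15 reads, and they held 74.8% and 94.8% of all Lck reads of their class. Of these, 2 of the 14 and 2 of the 18 also had at least 5 reads of the T-cell markers, 14.3% (1.78% to 42.8%) and 11.1% (1.38% to 34.7%), against 2.87% (1.44% to 5.08%) and 2.21% (0.892% to 4.50%) of the other B-like cells. The median sum of B-cell marker reads in these cells was 167.5 and 168.5, against 205 and 217 in the other B-like cells. They were spread over the 3 B-like clusters, 7, 6 and 1 cells in TAS-Seq and 7, 7 and 4 in BD WTA. Scrublet called 2 and 1 of them as doublets. For Lat the same limit was met by 7 B-like cells and 1, for Fyb by 7 in each library, for Zap70 by 2 and 0, and for Lcp2 by 0 and 2. One B-like cell of BD WTA had all 5 genes.

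Between the libraries, T-like cells had Lck at 0.479 times the BD WTA level in TAS-Seq (0.465 to 0.493), the only one of the 5 genes past 2-fold, beside 22.3% of all genes tested. Fyb was at 0.712 times (0.694 to 0.730) and Lat at 1.28 times (1.24 to 1.33). Zap70 and Lcp2 were at 1.01 times (0.940 to 1.09) and 1.03 times (0.965 to 1.09). Lck was lower in TAS-Seq in NK-like and B-like cells as well, at 0.409 times (0.360 to 0.463) and 0.513 times (0.462 to 0.569). Zap70 and Lat went the other way in NK-like cells, at 2.13 times (1.70 to 2.67) and 2.11 times (1.51 to 2.99). In B-like cells Lat was at 2.47 times (1.92 to 3.19) and Zap70, from 74 and 6 reads, at 9.90 times (4.34 to 27.8). Fyb and Lcp2 stayed within 2-fold in both classes. The share over all genes is not given for these classes. In T-like cells with a read, the median reads per cell in BD WTA and TAS-Seq were 21 against 9 for Lck and 10 against 5 for Zap70. They were 21 against 14 for Fyb, 11 against 10 for Lat and 7 against 6 for Lcp2. The lower quartiles of Lat and Lcp2 ran the other way, at 5 against 6 and 2 against 3. The same values were not taken over all genes, so nothing particular to the 5 genes is read from them.

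The rest of the T-cell receptor pathway was described through a list of 39 other genes. Of these, 20 in TAS-Seq and 21 in BD WTA were at least 2-fold higher in T-like than in B-like cells, 20 of them in both, and 6 and 7 were at least 2-fold lower, 5 of them in both. Among the genes that passed the low-level filter, 20 were higher and 6 lower in each library. Over all genes tested, 8.0% and 11.1% were higher and 15.4% and 15.2% lower, so the number of lower genes in the list is near the background and nothing is read from it. The low-level filter was passed by 39 of the 39 genes in TAS-Seq and 37 in BD WTA, where Dok1 was 1 of those below it. The median log2 ratio of the list was 1.31 and 1.43, beside 5.13 and 6.02 for the 5 genes. By role, 4 of 6 kinases, 9 of 15 adaptors, 6 of 11 receptors and phosphatases and 1 of 7 effectors were higher in T-like cells of both libraries. The effector was Plcg1, the phospholipase that LAT recruits, at 90.3 and 67.2 CPM in T-like cells and 9.71 and 14.6 CPM in B-like cells.

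Among the highest ratios in the list were those of Cd247, Skap1, Cd5 and Sh2d1a. Cd247 was at 191 and 187 CPM in T-like cells and 1.32 and 0.0611 CPM in B-like cells. Skap1, an adaptor that binds ADAP, was at 238 and 365 CPM in T-like cells and 5.05 and 2.32 CPM in B-like cells. Cd5, a receptor that dampens signalling, was at 189 and 92.5 CPM and at 4.27 and 0.0611 CPM, and Sh2d1a, which encodes the adaptor SAP, was at 124 and 58.1 CPM and at 1.77 and 0.611 CPM. At the other end, Tec, Ptpn6, Malt1 and Dok1 were among the genes lower in T-like than in B-like cells of both libraries, at 23.2 and 8.34 CPM against 102 and 122 CPM for Tec and at 106 and 67.8 CPM against 281 and 191 CPM for Malt1. Ptpn6, which encodes the phosphatase SHP-1, was at 223 and 228 CPM against 651 and 592 CPM.

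The B-cell counterparts of the same steps ran the other way. All 10 listed genes of the B-cell receptor pathway were at least 2-fold lower in T-like than in B-like cells of both libraries, beside 15.4% and 15.2% of all genes tested, with medians of -5.84 and -6.25 on the log2 scale. Syk, the relative of ZAP-70, was at 341 and 391 CPM in B-like cells and 4.65 and 3.02 CPM in T-like cells. Blnk, the B-cell relative of SLP-76, was at 260.05 and 322 CPM and at 3.63 and 0.0794 CPM, and Lat2, the relative of LAT, was at 115 and 167 CPM and at 1.59 and 1.11 CPM. The Src family kinases Lyn and Blk were at 189.7 and 188 CPM and at 309 and 446 CPM in B-like cells, and at no more than 6.27 CPM in T-like cells. This list and the B-cell markers that named the clusters were not disjoint, so its count was fixed in part by that choice.

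**Figure D5:**
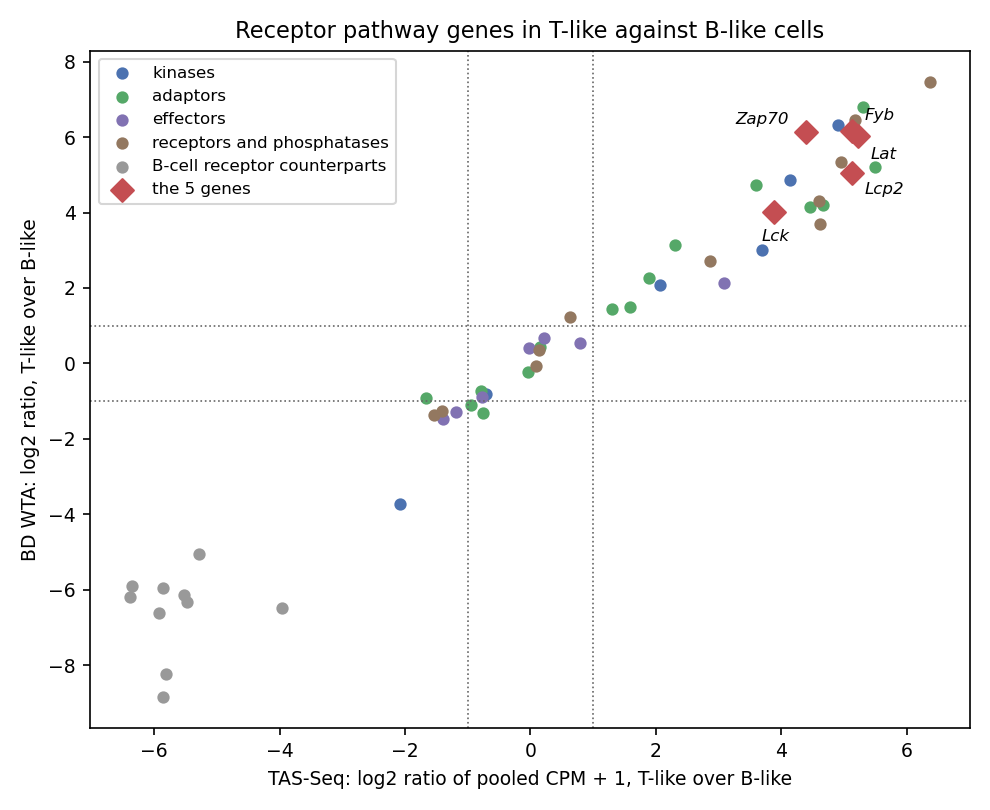
Log2 ratio of pooled CPM + 1 in T-like over B-like cells, with TAS-Seq on the horizontal and BD WTA on the vertical axis. Points are genes of the receptor pathway lists coloured by role, diamonds are the 5 genes, and dotted lines mark 2-fold. The 5 genes lie between 3.89 and 5.22 in TAS-Seq and between 4.01 and 6.16 in BD WTA, and the B-cell receptor genes lie below -3 in both.

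Partners of the 5 genes could also be read in NK-like and myeloid-like cells. Syk was at 145 and 291.5 CPM in NK-like cells, where Zap70 was at 225 and 106 CPM, so both kinases were present there. In myeloid-like cells Syk was at 181 and 272 CPM while Zap70 had 0 reads. Skap1 was at 186.5 and 219 CPM in NK-like cells and at 1.46 and 28.6 CPM in myeloid-like cells, so the Fyb level of myeloid-like cells came without a like level of Skap1. Grap2, which encodes the SLP-76 partner GADS, was at 261 and 245 CPM in T-like cells, at 25.5 and 0 CPM in NK-like cells and at 35.1 and 10.02 CPM in myeloid-like cells.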

How the data were processed

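Samples were grouped by amplification method as their titles state, 1 library each, and it is not given whether they are the libraries behind the spleen values of the study. The deposited tables hold counts, which the authors made as whole reads per gene and barcode without molecular identifiers. The submitters' processing notes name cutadapt 2.10, Bowtie2 2.4.2 and build GRCm38, and the methods of the study describe mapping to the forward strand of cDNA and non-coding RNA sequences. A subtraction of background reads is described there but not stated for these tables. Cells with at least 500 genes and at most 25% mitochondrial reads were kept, which removed 4 and 8 barcodes. Scrublet (scanpy 1.11.5) called 3 and 4 doublets, which stayed in. Both libraries were clustered together in Seurat 5.3.0 (CCA integration, 591 variable genes, 20 components, resolution 1), with 53 genes of the lists left out. To name a cluster, 3 or more markers of 1 type (myeloid lists pooled) had to exceed the other cells by 1 or more in mean log2(CPM + 1) and to be read in 25% of its cells. A stricter rule left most clusters unnamed, and this one was chosen with the clusters in view. Calls and log2 ratios used pooled CPM plus a pseudocount of 1, printed folds are ratios of pooled CPM without it, and shares over all genes were taken among genes with at least 10 CPM in a class and a read in 10 cells. TMM factors came from edgeR 4.0.16. Scripts were tested on simulated data. The members and gene lists were chosen with earlier results of these data known. Named genes were the 5 members, the list genes past 2-fold in both libraries with the highest and lowest ratios (some are not reported here), and the 3 genes most like each member; genes named to show a partner, such as Plcg1, Grap2, Lyn and Blk, were chosen after their values were seen. Alternatives changed the classes, the weight of cells, the depth and the limits on reads.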

Additional observations from a re-analysis of the deposited data

Results flagged for a closer look

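In 4 cases the ratio of a gene between the same classes lay on opposite sides of 1 in the 2 libraries. For Zap70 in Cd8 over Cd4 T-like cells the log2 ratio was 0.33 in TAS-Seq and -0.61 in BD WTA, a difference of 0.94. Neither counting interval reached 0, but 5 Cd4 cells held 67.3% and 66.4% of the Zap70 reads of their group. Without the 5 cells with most reads in each group, the log2 ratio was 1.27 and -0.12. For Lcp2 in NK-like over T-like cells it was 0.20 and -0.65, a difference of 0.85. Lcp2 in Cd8 over Cd4 T-like cells had -0.41 and 0.03, a difference of -0.44, and Lcp2 in myeloid-like over T-like cells had -0.05 and 0.28, a difference of -0.33. With all cells kept, none of these ratios reached 2-fold in either library, and with 1 library per method the differences were not tested.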

How the results depend on the processing

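Several counts stayed within 1.5 times under every alternative that gave a value. They were those of genes higher in T-like than in B-like cells (5 and 5) and differing between the libraries in T-like cells (1). The counts called in myeloid-like cells (4 and 3) and those of the pathway and B-cell receptor lists did so too. In myeloid-like cells of TAS-Seq the count of 4 did not hold the same genes throughout, since without the 5 cells with most reads Fyb dropped out (0.78 on the log2 scale) and Lcp2 came in (-1.68). The count for NK-like cells depended on few cells. Without the 5 cells with most reads in each class it was 4 in TAS-Seq and 5 in BD WTA in place of 2 and 1, an alternative that removes 5 of 20 and 5 of 26 NK-like cells. In BD WTA it was 2 with classes from single-cell markers, 3 with the mean of single-cell CPM and 2 at 20000 reads. The same removal of 5 cells gave 1 gene, Zap70, between Cd8 and Cd4 cells of TAS-Seq in place of 0. The share of T-like cells with at least 3 genes, 76.1% and 56.1%, was 68.0% and 49.0% at 10000 reads, 55.4% and 41.96% at 5000 reads and 47.0% and 37.9% with at least 5 reads, and 67.2% in TAS-Seq with at least 2 reads. The share of B-like cells was 0% in TAS-Seq, in place of 0.756%, at 10000 reads, at 5000 reads and with at least 5 reads, and was 0% in BD WTA with each library clustered alone, in place of 0.299%. Of 295 recomputed ratios of single genes, 113 lay outside the counting interval of the reported value. No ratio reported as past 2-fold changed sign. Among those reported as under 2-fold, 26 recomputed values did, some by far, such as Lcp2 in NK-like over T-like cells of TAS-Seq, from 0.20 to -3.20 without the 5 cells with most reads. With each library clustered alone there was no NK-like cluster in TAS-Seq and no myeloid-like cluster in either library, so 3 counts had no value. No paired analysis was possible because there was only 1 library on either side. Depth limits the NK-like and myeloid-like classes most, where 3 reads in the class correspond to between 2.15 and 2.69 CPM.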
